A study of Mus musculus with 12 samples.

Results

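Protein tyrosine phosphatases remove phosphate from tyrosine residues and so set the length and strength of signals that tyrosine kinases start. The genes described here are 10 classical members of this family known from macrophages, relatives of the targeted gene Ptprz1. They are the receptor-type genes Ptprc, Ptprj, Ptpra, Ptpre, Ptpro and Ptprs and the non-receptor genes Ptpn1, Ptpn2, Ptpn6 and Ptpn22. They were taken from the deposited table by matching its Ensembl identifiers to these mouse symbols. All 10 were found among 55891 genes, and all 10 passed the filter on low counts.

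The cells were macrophages derived from mouse bone marrow over 6 days in M-CSF (10 ng/mL), a growth factor on which this lineage depends. Donors were labelled PTPRZ_KO (KO) or PTPRZ_WT (WT), and cells were left as controls, given LPS at 100 ng/mL with IFNγ at 10 ng/mL for 24 h (LPS+IFNγ, the labels' M1), or given IL-4 at 20 ng/mL for 24 h (the labels' M2). Each of the 6 groups had 2 libraries, 12 in all. The strain label reads B6.129-Ptprz1tm1Nmo for every sample, WT included, while the titles of WT samples begin with B6. The labels give neither the donors' ages nor whether the 2 libraries of a group had separate animals or cultures as their source. The p-values therefore reflect the spread among these libraries alone, and that spread may be technical.

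Total counts per library ran from 13665607 to 19555600, and 3 counts were worth between 0.138 and 0.290 CPM (counts scaled to a common library depth, with TMM factors). Ptprz1 itself had 7 counts in WT IL-4 library 2 (0.344 CPM) and 0 in the other 11 libraries, so the RNA data do not check the knockout. Xist was present in the WT libraries alone and Ddx3y in the KO libraries alone, so donor sex and genotype cannot be told apart. Summed macrophage markers were between 8735 and 21463 CPM, while B cell, T and NK cell, dendritic cell, and mast cell and basophil lists each stayed below 5 CPM in every library. The granulocyte list stayed at or below 5.60 CPM in control and IL-4 libraries. Of its 6 genes S100a8 alone was high after LPS+IFNγ, at 24.8 and 25.2 CPM in WT and 38.0 and 220.3 CPM in KO libraries, while Ly6g and Elane were at 0 there and Mpo, Camp and Ngp at most at 0.272 CPM. Markers of stromal and endothelial cells differed between libraries of a group, and their values are given beside Ptpn22 and Ptpro below.

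In macrophages these enzymes act at several levels. Ptprc (CD45) and Ptprj (CD148) sit in the membrane and act on Src-family kinases, including the tail tyrosine that holds such kinases inactive. Ptpn6 (SHP-1) is cytosolic and is brought to the membrane by receptors with inhibitory tyrosine motifs, whereas Ptpn1 (PTP1B) and Ptpn2 (TC-PTP) act on Janus kinases, STAT factors and growth factor receptors. LPS acts through Toll-like receptor 4 and NF-κB, IFNγ through Janus kinases, and IL-4 through STAT6.

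Start-site sequences are shown for Ptprs, which moved in opposite directions under the stimuli, for the related genes Ptpra and Ptpre, and, for contrast, for Ptpn1, in which none of the motifs searched occurred. RefSeq promoter windows of GRCm38.p6 matched 9 of the 10 genes, with 15 windows because some genes have several starts; no window was used for Ptpn2. The sequences below are the 250 bases before the start, 5′ to 3′ on the gene's strand. Capitals mark matches to an NF-κB motif, to the STAT motif TTCNNNGAA, or to TTC and GAA parted by 4 bases, the spacing that STAT6 is known to prefer. The Ptprs window is at chr17:56462222-56462471 on the minus strand, and its first 25 transcribed bases were not found in a GENCODE M21 transcript. The Ptpre window is at chr7:135593231-135593480 on the plus strand, that of Ptpra at chr2:130450028-130450277 on the plus strand, and that of Ptpn1 at chr2:167932077-167932326 on the plus strand. Where a gene has several windows, the one with matches was chosen: the other Ptpre windows and the other Ptprs window, whose start is in a GENCODE M21 transcript, held no match to any motif searched.
Ptprs: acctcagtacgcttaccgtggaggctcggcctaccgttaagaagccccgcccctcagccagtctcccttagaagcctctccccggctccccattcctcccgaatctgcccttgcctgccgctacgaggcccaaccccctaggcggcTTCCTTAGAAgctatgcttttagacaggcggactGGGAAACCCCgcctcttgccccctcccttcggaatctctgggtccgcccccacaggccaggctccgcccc
Ptpre: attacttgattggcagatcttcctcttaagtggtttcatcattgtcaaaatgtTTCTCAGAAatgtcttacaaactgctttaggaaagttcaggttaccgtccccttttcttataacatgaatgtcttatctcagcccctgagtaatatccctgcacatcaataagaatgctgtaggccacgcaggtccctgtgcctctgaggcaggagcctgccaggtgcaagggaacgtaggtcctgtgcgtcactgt
Ptpra: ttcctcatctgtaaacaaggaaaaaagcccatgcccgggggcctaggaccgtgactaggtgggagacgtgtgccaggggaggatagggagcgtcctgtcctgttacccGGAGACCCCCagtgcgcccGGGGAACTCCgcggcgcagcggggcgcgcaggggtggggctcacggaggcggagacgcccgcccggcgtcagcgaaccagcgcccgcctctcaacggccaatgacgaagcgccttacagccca
Ptpn1: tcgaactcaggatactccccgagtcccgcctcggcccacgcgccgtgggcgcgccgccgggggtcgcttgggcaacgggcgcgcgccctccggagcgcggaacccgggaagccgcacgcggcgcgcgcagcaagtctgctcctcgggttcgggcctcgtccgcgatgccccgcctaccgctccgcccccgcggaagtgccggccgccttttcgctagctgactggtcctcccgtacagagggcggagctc

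Searched on both strands over whole windows of 300 bases, the TTCNNNGAA motif occurred in 3 of the 15 windows of these genes and in 8.30% of all 32851 windows. The form of it with 4 central bases occurred in 1 window, the Ptprs one shown, against 6.95% of all windows. The NF-κB motif occurred in 2 windows, those of Ptprs and Ptpra shown, against 8.46%, and twin matches lie in the Ptpra sequence. The interferon element core, GAAA repeated after a gap of any 2 bases, occurred in 0 windows against 3.44%, and the PU.1 core GAGGAA in 8 windows against 28.3%. PU.1 matches are not in capitals. A match describes letters only and does not show a site in use.

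Compared per kilobase of the longest annotated transcript, the mean over 12 libraries was highest for Ptpn6 (146 CPM per kb), followed by Ptprc (91.2), Ptprj (74.3), Ptpn1 (51.5), Ptpra (43.5) and Ptpre (26.7 CPM per kb). Ptprs (16.5 CPM per kb), Ptpro (11.04), Ptpn2 (9.95) and Ptpn22 (8.20) were the lowest. The ranges of neighbours in this order overlapped across the 12 libraries, as with Ptprc (60.8 to 128 CPM per kb) and Ptprj (41.3 to 133). Dividing by all exonic bases instead kept Ptpn6 first and Ptpn22 last but moved Ptprj to place 2, Ptpn1 to 3 and Ptprc to 4. Over the libraries, the ratio of the highest to the lowest CPM was smallest for Ptprc (2.104-fold) and largest for Ptprs (6.76-fold) and Ptpn22 (7.26-fold).

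**Figure D1:**
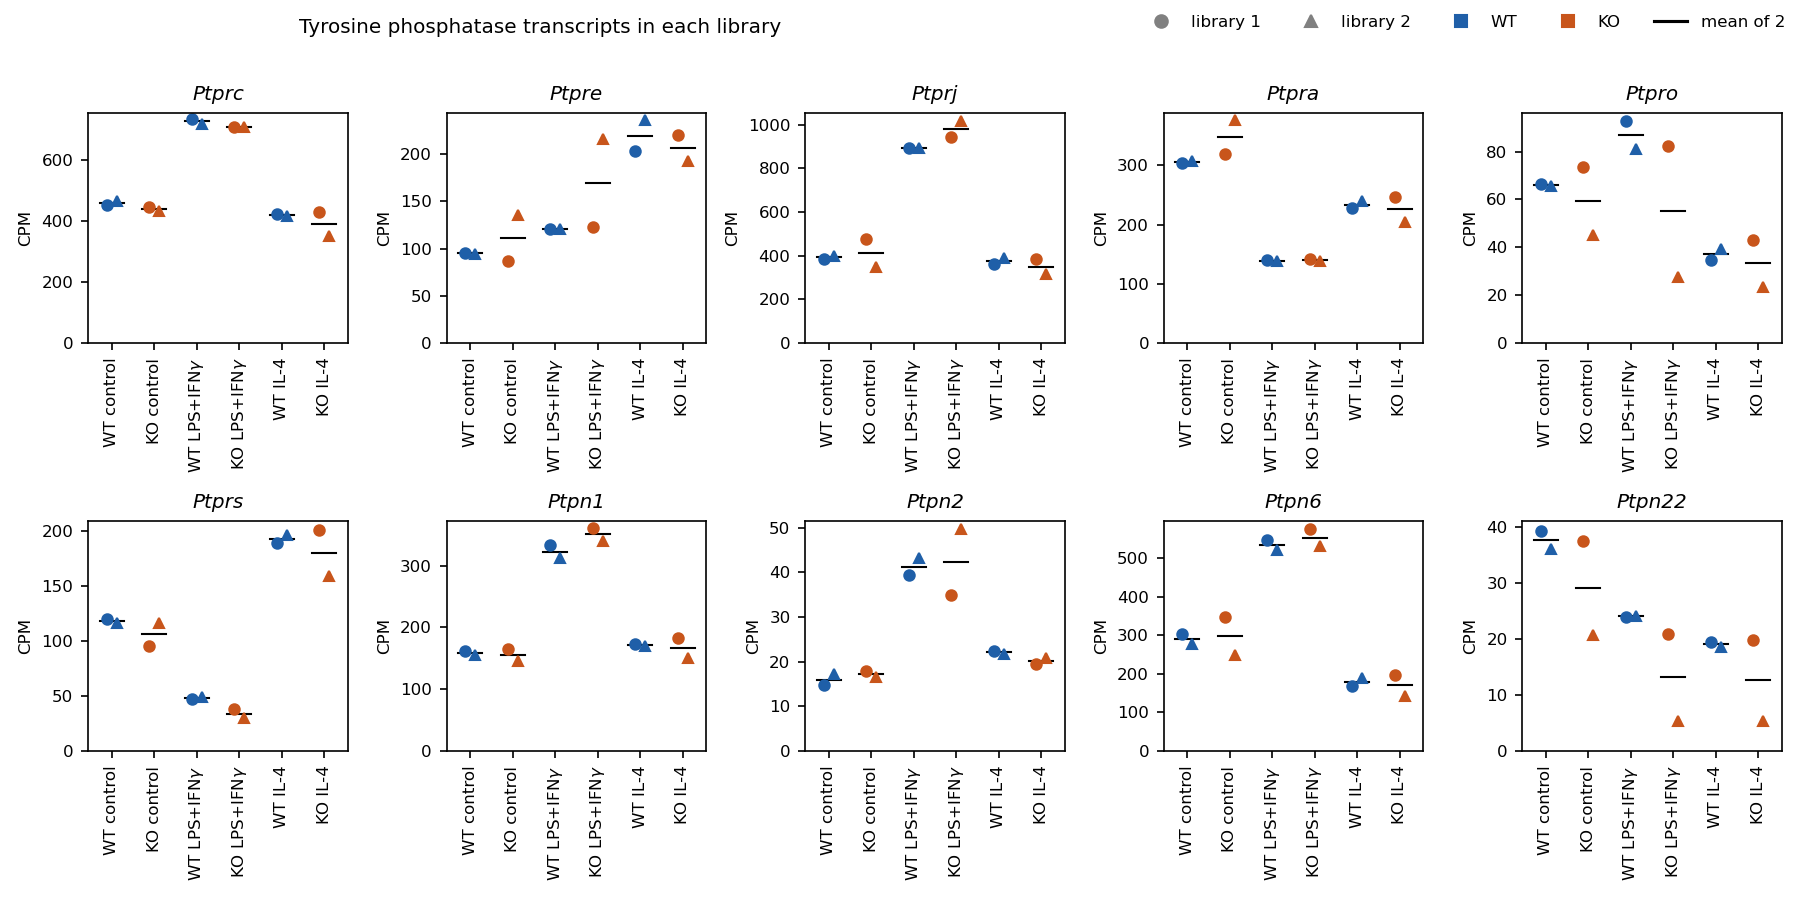
CPM (vertical axes, from 0, TMM-scaled) of the 10 tyrosine phosphatase genes in each of the 12 libraries, by group on the horizontal axes; circles are library 1, triangles library 2, blue WT, orange KO, and bars the mean of 2. Ptprj, Ptpn1 and Ptpn6 are high in all 4 LPS+IFNγ libraries, Ptprs is low there and high under IL-4, and the KO libraries numbered 2 lie low for Ptpn22 and Ptpro.

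The comparison of LPS+IFNγ with control asks how an inflammatory stimulus alters these transcripts. In each genotype 7 of the 10 genes changed, 5 higher (Ptprc, Ptprj, Ptpn1, Ptpn2 and Ptpn6) and 2 lower (Ptpra and Ptprs), and these were the same 7 in WT and KO. The share of all 13525 tested genes that changed was 54.3% in WT and 53.3% in KO, so a count of 7 in 10 stands against a response of most genes. Of all genes, 27.4% were higher and 27% lower in WT, and 27.2% and 26.1% in KO. The median log2 fold change of the 10 genes was 0.53 in WT and 0.65 in KO, beside −0.05 and −0.01 over all tested genes. In bulk RNA a smaller number of cells of a type and less RNA per cell cannot be told apart.

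Among the receptor-type genes that rose, Ptprj read 387 and 400.5 CPM in untreated WT cells and 893 and 894 CPM after LPS+IFNγ. In KO libraries it went from 476 and 348 CPM to 946 and 1018 CPM. All 4 stimulated libraries lay above all 4 controls. The log2 fold change was 1.18 ± 0.16 (SE) in WT and 1.25 ± 0.16 in KO (adjusted p = 1.98e-04 and 1.44e-04, edgeR quasi-likelihood F test). Ptprc, the pan-leukocyte phosphatase, read 453 and 466 CPM in WT controls and 734 and 718 CPM after the stimulus. Its KO values were 445 and 432 CPM in controls and 707 and 709 CPM after it. The groups did not overlap, and the log2 fold change was 0.66 ± 0.12 in WT and 0.69 ± 0.12 in KO (adjusted p = 0.00105 and 8.26e-04). Per kilobase of the longest transcript, the ratio of Ptprj to Ptprc was between 0.606 and 0.803 in controls and between 0.915 and 1.08 after LPS+IFNγ. By all exonic bases the mean over 12 libraries was 67.9 CPM per kb for Ptprj and 28.6 for Ptprc. Which of the 2 is larger therefore depends on the length used.

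Of the non-receptor genes, Ptpn1, Ptpn2 and Ptpn6 rose as well, whereas Ptpn22 did not. Ptpn1, anchored to the endoplasmic reticulum, read 162.5 and 155 CPM in WT controls and 333 and 312 CPM after LPS+IFNγ. KO libraries held 165 and 145.5 CPM of Ptpn1 in controls and 361 and 340 CPM after it. The groups were fully apart, with log2 fold changes of 1.02 ± 0.12 in WT and 1.18 ± 0.12 in KO (adjusted p = 7.36e-05 and 3.23e-05). Its close relative Ptpn2, which dephosphorylates JAK and STAT proteins, was the scarcer transcript of the pair. Ptpn2 read 14.8 and 17.2 CPM in WT controls and 39.3 and 43.2 CPM after the stimulus. KO values of Ptpn2 were 18.0 and 16.5 CPM in controls and 35.0 and 49.8 CPM after it. Every stimulated library lay above every control, and Ptpn2 rose by 1.37 ± 0.17 in WT and 1.29 ± 0.17 in KO on the log2 scale (adjusted p = 1.09e-04 and 1.61e-04). Per kilobase, Ptpn1 stood 4.25 to 6.84 times above Ptpn2 across all libraries, and the ranges of this ratio overlapped between treatments.

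Ptpn6 carries paired SH2 domains and an inhibitory role in myeloid cells. Its WT values were 304 and 277 CPM in controls and 547 and 521 CPM after LPS+IFNγ. In KO libraries Ptpn6 read 346 and 248 CPM in controls and 575 and 531 CPM after the stimulus. Every stimulated library was above every control, and the log2 fold change was 0.88 ± 0.19 in WT and 0.90 ± 0.19 in KO (adjusted p = 0.00341 and 0.00318).

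Ptpra, a widely expressed activator of Src-family kinases, moved the other way. It read 304 and 307 CPM in WT and 319 and 377 CPM in KO controls. After LPS+IFNγ all 4 libraries fell to a narrow band of 138 to 142 CPM, well below the controls. The log2 fold change was −1.13 ± 0.12 in WT and −1.31 ± 0.12 in KO (adjusted p = 4.19e-05 and 1.84e-05). Ptprs, a receptor for the glycan chains of proteoglycans, also fell. It read 120 and 116.5 CPM in WT controls and 47.4 and 49.3 CPM after the stimulus, and in KO libraries 95.8 and 117 CPM and then 38.5 and 29.7 CPM. No stimulated library reached a control, and the log2 fold change was −1.29 ± 0.16 in WT and −1.64 ± 0.16 in KO (adjusted p = 1.01e-04 and 2.59e-05).

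The remaining 3 genes did not pass the test. Ptpre, the relative of Ptpra that has a receptor and a cytosolic form, read 95.2 and 94.3 CPM in WT controls and 121 in both stimulated WT libraries. In KO libraries it read 86.6 and 135 CPM in controls and 123 and 216 CPM after LPS+IFNγ, so the KO groups overlapped. The log2 fold change of Ptpre was 0.35 ± 0.26 in WT and 0.61 ± 0.26 in KO (adjusted p = 0.279 and 0.0745). Without KO LPS+IFNγ library 1 the KO value was 0.96, and without KO control library 2 it was 0.97. Over the 4 fits with 1 library left out it ran from 0.15 to 0.97. The antisense gene 5830432E09Rik overlaps Ptpre and read 4.33 to 13.5 CPM, so a small part of the Ptpre counts is uncertain where strand was not used in counting. Antisense genes also overlap Ptpra (4930473A02Rik) and Ptpn6 (Gm20531), whose counts are open to the same kind of uncertainty. With only the libraries of the contrast, Ptpre in WT passed the threshold at 0.34 (adjusted p = 0.00120), and without the filter on low counts it did so in KO at 0.58 (adjusted p = 0.0164). A replicate block (adjusted p = 0.0476) and DESeq2 (adjusted p = 0.0480) also called it in KO. In all, 3 of the 6 alternatives that kept 2 libraries per group called Ptpre in KO. Its value ran from 0.10 to 0.62 over these 6. Ptpro and Ptpn22 are described with the KO libraries below.

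Dividing by library totals in place of TMM factors, an alternative added after the data were seen, changed which genes rose. It moved the median log2 fold change of all genes to −0.55 in WT and −0.51 in KO, and the share of called genes that were higher from 50.4% and 51.0% to 24.9% and 24.8%. Ptprc then had log2 fold changes of 0.16 and 0.19 (adjusted p = 0.258 and 0.185) and Ptpn6 0.38 and 0.40 (adjusted p = 0.113 and 0.102) in WT and KO. Ptprj, Ptpn1 and Ptpn2 stayed higher and Ptpra and Ptprs lower past the threshold under both scalings, whereas the WT value of Ptpre turned to −0.14.

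**Figure D2:**
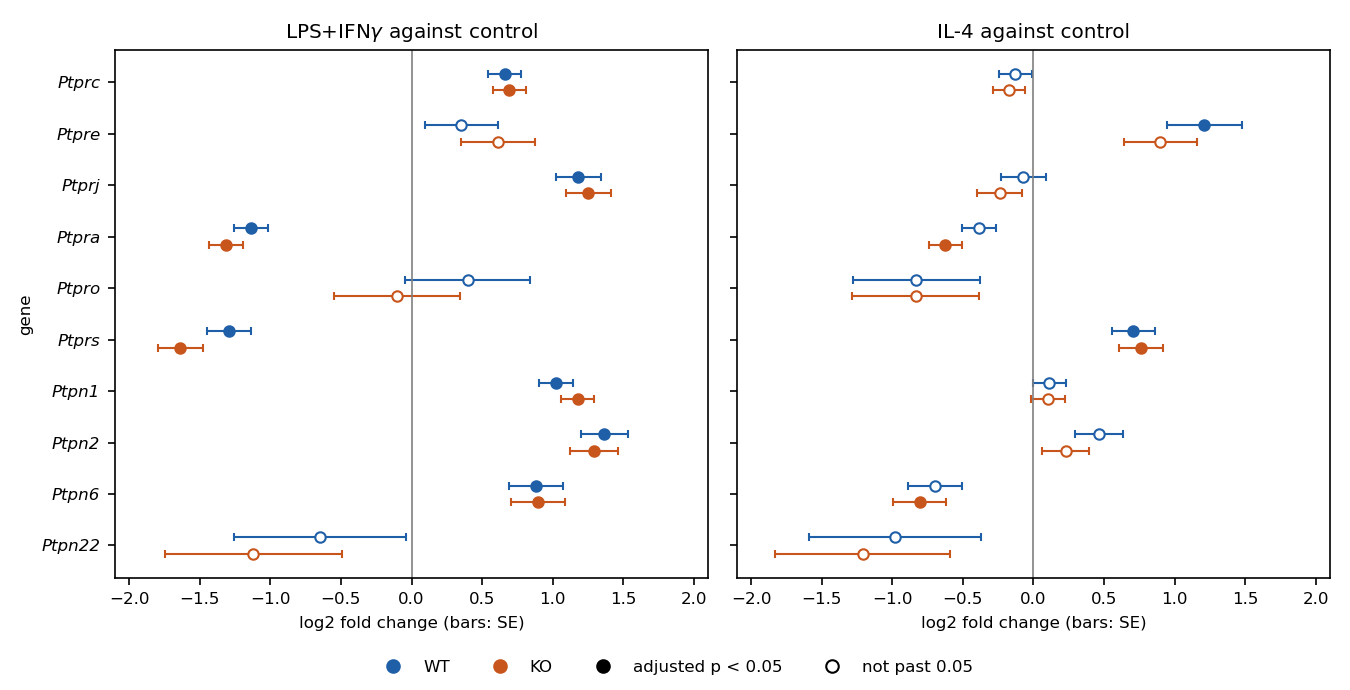
Log2 fold change (horizontal axes; bars are SE) of each gene (vertical axis) after LPS+IFNγ, left, and after IL-4, right, against control; blue is WT, orange KO, and filled points have an adjusted p below 0.05. There are 7 filled genes after LPS+IFNγ in each genotype and 2 in WT and 3 in KO after IL-4.

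IL-4 against control asks how the alternative stimulus acts on the same transcripts. In WT 2 of the 10 genes changed, both higher (Ptpre and Ptprs), beside 9.04% of all genes tested. In KO 3 of the 10 changed, 1 higher (Ptprs) and 2 lower (Ptpra and Ptpn6), beside 6.86% of all genes. Higher genes made up 4.92% of all tested in WT and 3.52% in KO, and lower genes 4.12% and 3.34%. Ptprs was the only gene called in both genotypes. The median log2 fold change over the 10 genes was −0.10 in WT and −0.21 in KO, with medians over all genes of −0.02 in WT and 0.0036 in KO.

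Ptprs rose after IL-4, opposite to its fall after LPS+IFNγ. It reached 190 and 197 CPM in WT and 201 and 160 CPM in KO libraries, above every control (95.8 to 120 CPM). The log2 fold change was 0.71 ± 0.15 in WT and 0.76 ± 0.15 in KO (adjusted p = 0.0234 and 0.0212). Ptpre rose to 203 and 236 CPM in WT and read 220.5 and 193 CPM in KO libraries, again above every control. Its log2 fold change was 1.21 ± 0.26 in WT (adjusted p = 0.0234) and 0.90 ± 0.26 in KO (adjusted p = 0.0718). A replicate block (adjusted p = 0.0383) and DESeq2 (0.0148) called it in KO, among 3 of the 6 alternatives that kept 2 libraries per group. The overlapping antisense gene 5830432E09Rik went from 4.33 to 5.36 CPM in controls to 6.77 to 13.5 CPM under IL-4.

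Ptpra and Ptpn6 were lower after IL-4. Ptpra read 228 and 240 CPM in WT and 246 and 205 CPM in KO libraries, below all 4 controls (304 to 377 CPM). The log2 fold change of Ptpra was −0.39 ± 0.12 in WT (adjusted p = 0.0749) and −0.62 ± 0.12 in KO (adjusted p = 0.0172). Ptpn6 read 169 and 189 CPM in WT and 198 and 142 CPM in KO libraries, below all 4 controls (248 to 346 CPM). Its log2 fold change was −0.70 ± 0.19 in WT (adjusted p = 0.0512) and −0.81 ± 0.19 in KO (adjusted p = 0.0376). The WT value of Ptpn6 passed the threshold with a replicate block (adjusted p = 0.0289), without the filter on low counts (0.00701) and with DESeq2 (0.00591). It also did so with only the libraries of the contrast (0.00296) and with library totals (0.0418), but not with DESeq2 size factors in edgeR (0.0536). Over the 4 fits with 1 library left out this WT value ran from −0.78 to −0.62. The values for WT and KO were not shown to differ for either gene: the interaction for Ptpra was −0.24 ± 0.17 (unadjusted p = 0.19).

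These IL-4 calls rested on few libraries. In WT the calls of Ptpre and Ptprs were lost on leaving out any 1 of the 4 libraries, with adjusted p-values between 0.0860 and 0.162 and fold changes of the same direction. In KO, Ptprs was lost without control library 1 (adjusted p = 0.133) or IL-4 library 1 (0.0663), Ptpn6 without control library 1 (adjusted p = 0.196) or IL-4 library 2 (0.189), and Ptpra without IL-4 library 2 (0.0878). Without KO control library 2, Ptpre was called in KO, at 1.22 (adjusted p = 0.0397). DESeq2 called 4 genes in each genotype.

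Ptprc, Ptprj, Ptpn1 and Ptpn2 were not called after IL-4. Ptprc read 417 and 424 CPM in WT and 349 and 429 CPM in KO libraries (log2 fold change −0.13 ± 0.12 and −0.17 ± 0.12, adjusted p = 0.548 and 0.406). Ptprj read between 315 and 388 CPM and overlapped the controls in both genotypes. Ptpn1 read between 151 and 183 CPM, with log2 fold changes of 0.11 ± 0.12 in WT and 0.10 ± 0.12 in KO. Ptpn2 read 22.5 and 21.7 CPM in WT and 19.6 and 20.9 CPM in KO libraries, above all 4 controls, but its changes of 0.46 ± 0.17 and 0.23 ± 0.17 did not pass the test (adjusted p = 0.117 and 0.443).

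Set directly against each other, LPS+IFNγ and IL-4 differed for 9 of the 10 genes in WT, 6 higher after LPS+IFNγ and 3 lower, where 56.2% of all genes differed. In KO 7 differed, 5 higher and 2 lower, beside 54.9% of all genes. Of all genes, 28.1% were higher and 28.1% lower in WT, and 26.7% and 28.1% in KO. The widest gap was that of Ptprs, with a log2 difference of −1.998 ± 0.16 in WT and −2.40 ± 0.16 in KO (adjusted p = 6.63e-06 and 2.88e-06). Ptpn6 came next with 1.58 ± 0.19 in WT and 1.70 ± 0.19 in KO (adjusted p = 9.62e-05 and 6.54e-05). Ptprj differed by 1.25 ± 0.16 in WT and 1.49 ± 0.16 in KO, and Ptpra by −0.75 ± 0.12 and −0.69 ± 0.12, all past the threshold. Ptpre (−0.86 ± 0.26, adjusted p = 0.0188) and Ptpro (1.23 ± 0.45, adjusted p = 0.0420) were called in WT alone, and in KO they were −0.29 ± 0.26 (adjusted p = 0.376) and 0.73 ± 0.45 (adjusted p = 0.198). Those WT calls were lost without WT LPS+IFNγ library 1 (adjusted p = 0.0790 for Ptpre and 0.143 for Ptpro), without WT LPS+IFNγ library 2 (0.0787 and 0.0891) or without WT IL-4 library 2 (0.0895 and 0.112), and that of Ptpro also without WT IL-4 library 1 (0.161). In KO, leaving out LPS+IFNγ library 2 brought both past the threshold, at −0.75 for Ptpre (adjusted p = 0.0309) and 1.31 for Ptpro (adjusted p = 0.0146). With library totals, the higher genes among all called were 28.1% in WT and 25.3% in KO in place of 49.9% and 48.7%, and Ptpro in WT was 0.79 (adjusted p = 0.166).

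The mixture of these transcripts differed with treatment. Of the summed CPM per kb of the 10 genes, Ptpn6 made up 30.1% ± 1.47 (SD, n = 2) in WT controls, 35.8% ± 0.471 after LPS+IFNγ and 20.8% ± 0.854 after IL-4. In KO libraries its share was 30.2% ± 4.28, 36.0% ± 1.60 and 20.96% ± 1.497. Ptpra held 13.7% ± 0.321 in WT controls, 4.05% ± 0.0281 after LPS+IFNγ and 11.8% ± 0.00220 after IL-4, and Ptpre went from 3.94% ± 0.0441 to 3.26% ± 0.0690 and 10.2% ± 0.716. Per kilobase of the longest transcript, Ptpra read 3.01 to 3.98 times Ptpre in controls and 1.098 to 1.21 times under IL-4. After LPS+IFNγ the ratio was between 0.690 and 1.25, and the value below 1 was that of KO library 2. By all exonic bases the mean over 12 libraries was 21.4 CPM per kb for Ptpra and 15.1 for Ptpre, in place of 43.5 and 26.7. Ratios near 1 therefore do not show which gene is the larger, whereas their change between treatments does not depend on the length. The sum itself, in TMM-scaled CPM, differed, at 423 and 413 CPM per kb in WT controls, 655 and 636 after LPS+IFNγ and 363 and 382 after IL-4. A share can thus fall while the gene's TMM-scaled CPM is higher, as with Ptpre in WT after LPS+IFNγ. The TMM factors were 1.15 and 1.16 in WT controls and 0.806 and 0.833 in WT after LPS+IFNγ. With library totals the sums of these 2 groups would lie closer together. These shares and ratios were not tested, and the size of each share depends on the transcript length used.

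**Figure D3:**
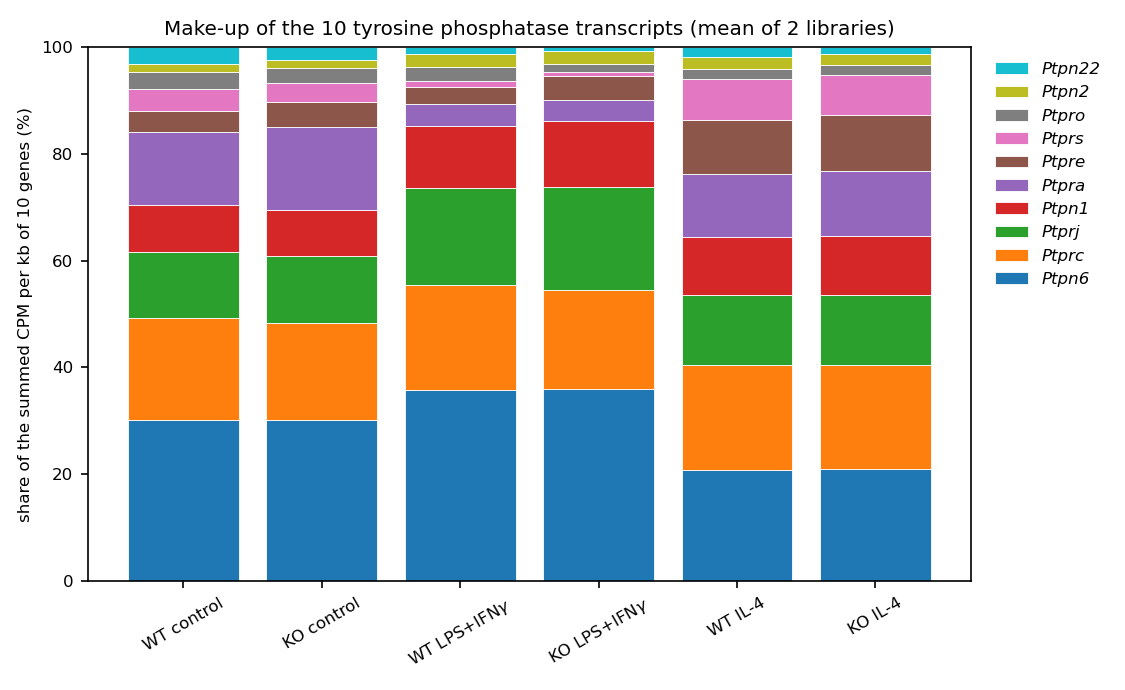
Share (vertical axis, %) of each gene in the summed CPM per kb of the 10 genes, as the mean of 2 libraries, for the 6 groups (horizontal axis). Ptpn6 is the widest band in every group, at 35.8% in WT after LPS+IFNγ and 20.8% in WT after IL-4 (36.0% and 20.96% in KO). Ptprc is close to it under IL-4 with the longest transcript as length. By all exonic bases the mean over 12 libraries was 28.6 CPM per kb for Ptprc and 120 for Ptpn6, so this closeness depends on the length used. In WT IL-4 library 1 Ptprc made up 20.4% and Ptpn6 20.2%, while Ptpn6 was the larger in the other IL-4 libraries.

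KO against WT asks whether loss of the related phosphatase Ptprz1 went with a change in these genes. Called genes numbered 0 of 10 in controls, 0 after LPS+IFNγ and 0 after IL-4, beside 0.0739%, 0.0591% and 0.0665% of all genes, in edgeR's test. DESeq2 also called 0 of the 10 in each, with 66, 35 and 18 genes of all called. At an unadjusted p below 0.05 there were 0, 1 and 0 of the 10 genes, the 1 being Ptprs. Over all 13525 tested genes there were 1011, 1119 and 453, so 1 in 10 is close to the share of all genes. Ptprs after LPS+IFNγ read 47.4 and 49.3 CPM in WT and 38.5 and 29.7 CPM in KO libraries, with no overlap. Its log2 difference was −0.50 ± 0.16 (unadjusted p = 0.0111, adjusted p = 0.564), and the interaction with the response to LPS+IFNγ was −0.34 ± 0.22 (unadjusted p = 0.15, adjusted p = 0.991). The difference was −0.71 without KO LPS+IFNγ library 1 (adjusted p = 0.0689) and −0.32 without KO LPS+IFNγ library 2 (adjusted p = 1). Neither interaction called any of the 10 genes or any gene at all (0%). Unadjusted p-values below 0.05 numbered 0 of the 10 in both, beside 476 (LPS+IFNγ) and 604 (IL-4) of all genes. DESeq2 called 5 genes of all for LPS+IFNγ and 4 for IL-4, none of them among the 10.

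The genotype differences were measured with unequal precision. The 95% interval of the genotype difference reached 0.26 to each side for Ptprc on the log2 scale, stayed within 0.5 for 7 of the 10 genes, and reached 1.35 to 1.41 for Ptpn22. Ptpre had intervals from −0.36 to 0.81 in controls, from −0.10 to 1.07 after LPS+IFNγ and from −0.67 to 0.50 after IL-4.

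**Figure D4:**
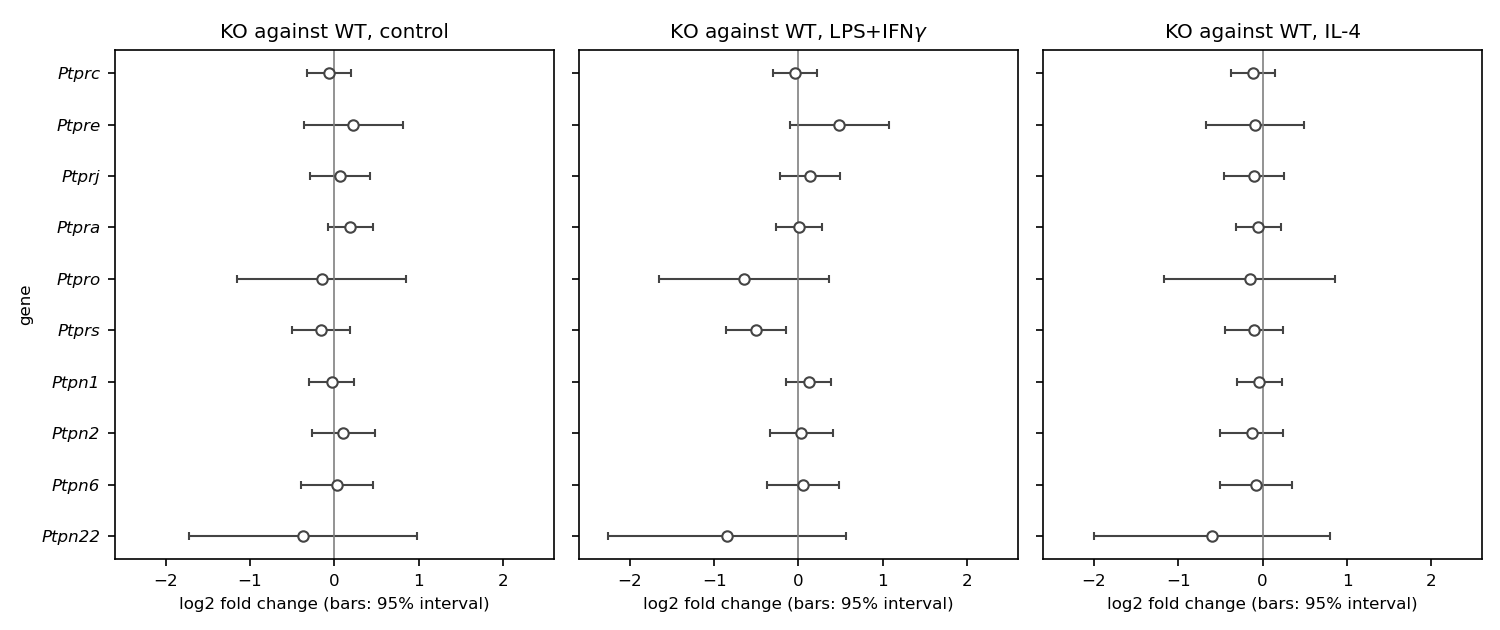
Log2 difference of KO against WT (horizontal axes; bars are 95% intervals) for the 10 genes (vertical axes) in controls, after LPS+IFNγ and after IL-4. All intervals include 0 except that of Ptprs after LPS+IFNγ, and the widest bars belong to Ptpn22 and Ptpro. The intervals are not adjusted for the number of genes tested.

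Ptpn22 and Ptpro varied most between libraries of a group. Ptpn22, a lymphoid and myeloid phosphatase that acts on Src and Syk family kinases, read 39.4 and 36.1 CPM in WT controls, 23.9 and 24.2 CPM after LPS+IFNγ and 19.5 and 18.7 CPM after IL-4. In KO libraries numbered 1 it was close to WT, at 37.5, 20.9 and 19.8 CPM. In KO libraries numbered 2 it was lower, at 20.7, 5.42 and 5.45 CPM in the same order. Both WT stimulated groups lay below the WT controls, but with the spread shared across all 6 groups the log2 fold changes did not pass the test. They were −0.65 ± 0.61 in WT and −1.12 ± 0.62 in KO after LPS+IFNγ (adjusted p = 0.393 and 0.162), and −0.98 ± 0.61 and −1.21 ± 0.62 after IL-4 (adjusted p = 0.359 and 0.269). Fitted with only the 4 libraries of the contrast, the WT values of Ptpn22 were −0.66 (adjusted p = 7.85e-04) and −0.97 (adjusted p = 0.00139), both past the threshold.

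Ptpro, a receptor-type phosphatase also known as GLEPP1 from kidney podocytes, behaved alike in this respect. WT libraries held 66.4 and 65.5 CPM in controls, 92.6 and 81.1 CPM after LPS+IFNγ and 34.7 and 39.4 CPM after IL-4. KO libraries numbered 1 held 73.6, 82.4 and 43.2 CPM, and those numbered 2 held 45.1, 27.6 and 23.5 CPM. The log2 fold change was 0.40 ± 0.44 in WT and −0.10 ± 0.45 in KO after LPS+IFNγ, and −0.83 ± 0.45 in both after IL-4 (adjusted p = 0.476, 0.870, 0.290 and 0.295). With only the libraries of the contrast, Ptpro in WT passed the threshold at 0.38 after LPS+IFNγ (adjusted p = 0.00480) and −0.82 after IL-4 (adjusted p = 0.00201). Leaving out KO LPS+IFNγ library 1 gave −1.11 for Ptpro (adjusted p = 0.0467) and −2.43 for Ptpn22 (adjusted p = 0.0264) in KO after LPS+IFNγ. Leaving out KO LPS+IFNγ library 2 turned the Ptpro value to 0.47 (adjusted p = 0.306).

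The KO libraries numbered 2 also stood apart in 8 stromal and endothelial markers. Their summed level was 807, 684 and 1298 CPM in control, LPS+IFNγ and IL-4, against 345, 278 and 326 CPM in KO libraries numbered 1. In WT libraries the sum was 50.8 to 65.8 CPM in those numbered 1 and 191 to 346 CPM in those numbered 2. All 8 markers had counts in each of the 6 groups. The WT libraries of a group, which also differed in this sum, had Ptpn22 and Ptpro levels close to each other. Their sums, up to 346 CPM, did not reach those of the KO libraries numbered 2, so they do not cover that range. The part of these cells' RNA in the Ptpn22 and Ptpro values was not tested. With the 3 KO libraries numbered 2 left out, an alternative added after the data were seen, each KO group held 1 library. In that fit Ptpn22 in KO was −0.89 after LPS+IFNγ and −0.94 after IL-4, and Ptpro was 0.12 and −0.78. The libraries left out were the lower ones for both genes in each treatment. KO against WT values without them therefore do not test the genotype difference. The KO against WT values of Ptpn22 went from −0.37, −0.84 and −0.60 to −0.01, −0.21 and 0.04, and those of Ptpro from −0.15, −0.65 and −0.15 to 0.15, −0.08 and 0.20, in control, LPS+IFNγ and IL-4.

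**Figure D5:**
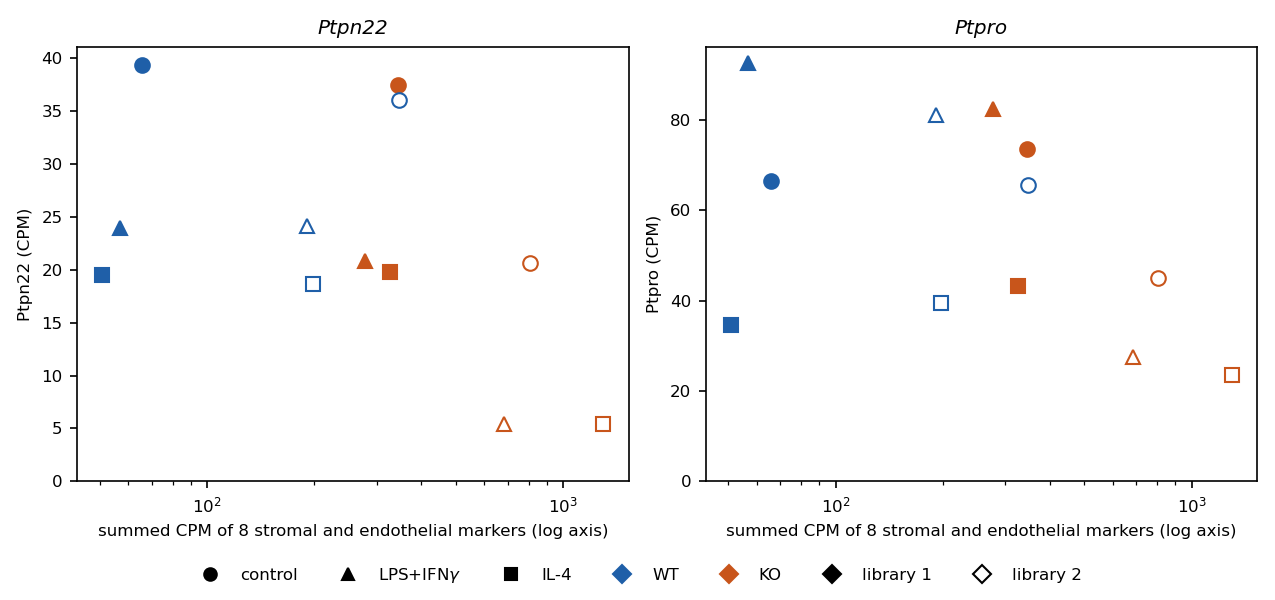
CPM of Ptpn22, left, and Ptpro, right (vertical axes, from 0), against the summed CPM of 8 stromal and endothelial markers (horizontal log axes), 1 point per library; shapes give the treatment, blue is WT, orange KO, filled points are libraries 1 and open points libraries 2. The 3 open orange points have the highest marker sums, 684 to 1298 CPM, and the lowest level of both genes within their treatment.

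Other classical tyrosine phosphatases were followed as a list of 28 genes, of which 27 were matched and 17 passed the filter; Ptprg was not analysed here. After LPS+IFNγ 4 were higher and 6 lower in WT, and 3 higher and 5 lower in KO, so 10 and 8 of 17 were called where 54.3% and 53.3% of all genes were. Their median log2 fold changes were −0.49 and 0.10, beside −0.05 and −0.01 over all genes. Ptprm, a receptor engaged in adhesion between like cells, went from 0.826 and 2.07 to 10.97 and 12.1 CPM in WT (log2 fold change 2.99 ± 0.56 in WT and 2.17 ± 0.52 in KO, adjusted p = 0.00143 and 0.00634). Ptpn18, which dephosphorylates receptor kinases of the ErbB family, fell from 26.0 and 28.5 to 8.65 and 7.59 CPM in WT (−1.75 ± 0.23 in WT and −1.51 ± 0.23 in KO). Ptpn3 (−3.78 ± 0.81 in WT and −2.11 ± 0.67 in KO) and Ptpn4 (−1.06 and −1.40), relatives with FERM domains, fell too. Ptpn3 read 0.0681 and 0.339 CPM in WT after LPS+IFNγ, near the worth of 3 counts there (0.204 and 0.203 CPM). The size of its fall is therefore uncertain. After IL-4 0 were higher and 1 lower in each genotype, beside 9.04% of all genes called in WT and 6.86% in KO. Of the 10 genes that did not pass the filter, Ptprz1 among them, the highest CPM in any library was 0.344.

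The kinases and STAT factors that work beside these phosphatases, 24 genes and all tested, were mostly higher after LPS+IFNγ: 17 higher and 3 lower in WT, 16 and 3 in KO, where 27.4% and 27.2% of all genes were higher. Their median log2 fold changes of 1.32 and 1.24 compare with −0.05 and −0.01 over all genes. Stat2, a factor of interferon signalling, rose by 4.62 ± 0.32 in WT and 4.05 ± 0.31 in KO on the log2 scale. Jak2, the kinase on which Ptpn1 acts, went from 39.3 and 37.6 to 340 and 323 CPM in WT (3.11 ± 0.19 in WT and 3.08 ± 0.19 in KO). Fgr (1.94 and 2.25), a Src-family kinase of myeloid cells, and Stat3 (2.24 and 2.54) rose in both genotypes. After IL-4 2 were higher and 1 lower in WT and 2 higher and 2 lower in KO, beside 9.04% and 6.86% of all genes called. Fyn, another Src-family kinase, rose under IL-4 from 28.3 and 27.98 to 95.6 and 84.7 CPM in WT (1.68 ± 0.10 in WT and 1.65 ± 0.10 in KO, adjusted p = 7.54e-05 and 1.30e-04).

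Receptors with inhibitory tyrosine motifs, which can recruit Ptpn6, numbered 15, all tested. After LPS+IFNγ 10 were higher and 1 lower in WT, and 9 higher and 3 lower in KO, where 27.4% and 27.2% of all genes were higher and 27% and 26.1% lower. Their median log2 fold changes were 1.03 in WT and 1.18 in KO, beside −0.05 and −0.01 over all genes. Fcgr2b, the inhibitory Fc receptor, went from 19.2 and 26.4 to 451 and 489 CPM in WT (log2 fold change 4.36 ± 0.20 in WT and 4.82 ± 0.20 in KO). Cd300lf (6.48 in WT and 5.99 in KO), Siglece (4.18 and 4.197), Pecam1 (3.78 and 3.87) and Pilra (3.60 and 3.67) rose in both genotypes, and Cd300a fell (−2.004 and −2.29). After IL-4 2 were higher and 3 lower in WT and 1 higher and 3 lower in KO, beside 9.04% and 6.86% of all genes called. Fcgr2b rose there too (2.80 ± 0.19 in WT and 3.15 ± 0.19 in KO), while Siglece (−4.38 and −3.36), Pilra (−1.58 and −2.13) and Clec12a (−1.30 and −1.09) fell. Siglece read only 0.0558 and 0.344 CPM in the WT IL-4 libraries, near the worth of 3 counts, so the size of its WT fall is uncertain. Of all 3 lists, 0 genes were called in KO against WT or in an interaction.

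For each phosphatase the genes with the nearest pattern were found as the smallest root mean square difference of centred log2 CPM over the 12 libraries, among 13339 genes compared. Ptprc lay nearest to Ambra1 and Tnks (difference 0.06 log2 for each), Ptprj to Lamp2 and Hdac1 (0.11 each), and Ptpn1 to Coro1b and Hgs (0.07 each). Ptpra lay nearest to Mbnl1 (0.10) and Cux1 (0.11), Ptpn2 to Psmd10 and Mtm1 (0.11 each), Ptpn6 to Evi2 (0.13) and Fyco1 (0.14), and Ptprs to Tspan5 and E330009J07Rik (0.16 each). The nearest genes were Rars (0.15) and Fgd6 (0.19) for Ptpre, Hacd4 (0.18) and N4bp2l1 (0.25) for Ptpro, and Slc2a3 (0.29) and Susd1 (0.34) for Ptpn22. For scale, the SD of log2 CPM over the libraries was 0.38 for Ptprc and 0.98 for Ptprs.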

How the data were processed

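RNA sequencing of 12 libraries was deposited as a table of estimated counts per Ensembl gene. The deposited values were whole numbers, taken as rounded Salmon estimates and used as they stood. The submitters' processing notes name FastQC 0.11.9, Salmon 1.10.2, DESeq2 1.45.3, R 4.4.1 and build GRCm39. The transcript annotation and strand setting were not given in the sources used here. Of 55891 identifiers, 51425 (92.0%) were matched to a symbol in GENCODE M21 (GRCm38), and no coordinate was converted.

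Libraries were grouped by sample titles, scaled with TMM, and filtered with filterByExpr in edgeR 4.0.16 (R 4.3.3), which left 13525 genes. A quasi-likelihood model with 6 group means was fitted to all 12 libraries (6 residual and 3.36 prior degrees of freedom). Two-sided F tests were made for 11 contrasts, with Benjamini-Hochberg adjustment over all tested genes and a threshold of 0.05. SEs were derived from F. In no group did the libraries agree within sampling noise (chi-square of 7.10 to 54.9 per gene with at least 20 counts), so none was merged as a repeat deposit of another; this does not show that they came from separate sources. On simulated counts for LPS+IFNγ against control in WT, with 13525 genes, 52 of 100 genes changed by 1 on the log2 scale and 100 of 100 changed by 2 were recovered, with 7 unchanged genes called. Only these genes were changed there and every gene had the same spread, whereas 54.3% of genes were called in the real contrast. The shares recovered therefore do not give the share of true changes that the real tests would find.

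The 10 genes and all lists were chosen with earlier results of these data known. Named from a list were genes past the threshold in both genotypes in 1 direction with an absolute log2 fold change of at least 1, up to 6 per list and stimulus; some of these are not reported here. Alternatives were DESeq2 size factors, DESeq2 1.42.0, no filter, only the libraries of a contrast, a replicate block, and leaving out each library; library totals and leaving out the 3 KO libraries numbered 2 were added after the data were seen. The worth of 3 counts covers counting error only; the 95% intervals come from the fit and include the spread between libraries.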

Additional observations from a re-analysis of the deposited data

How the results depend on the processing

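The 7 genes called after LPS+IFNγ kept direction and call in each genotype when any 1 library was left out, and lost Ptprc and Ptpn6 with library totals. With only the libraries of the contrast all 10 were called in WT, adding Ptpre (adjusted p = 0.00120), Ptpro (0.00480) and Ptpn22 (7.85e-04). That setting called 8680 of all 12585 genes tested. In KO 9 were called without the filter, adding Ptpre (0.0164) and Ptpn22 (0.0147), beside 6926 of all 22844 genes tested. IL-4 calls depended on the setting. In WT the 2 calls became 4 with DESeq2, 7 with only the libraries of the contrast, and 0 to 0 with 1 library left out. In KO the 3 calls became 5 without the filter on low counts, 0 with only the libraries of the contrast, 6 without the 3 KO libraries numbered 2, and 1 to 4 with 1 library left out. Fits that leave 1 library in a group assume that it varies like the other groups. The 0 calls of KO against WT and of the interactions stayed 0 among the 10 genes in every setting run.

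Directions turned for values that had not passed the test. With library totals, Ptpre and Ptpro in WT after LPS+IFNγ were −0.14 and −0.10. Without the 3 KO libraries numbered 2, Ptpro in KO after LPS+IFNγ was 0.12, KO against WT was −0.13 for Ptpre and 0.15 for Ptpro in controls and 0.20 for Ptpro, 0.039 for Ptprs and 0.039 for Ptpn22 after IL-4, and the IL-4 interaction of Ptpra was 0.0013. With 1 library left out, KO values ran from −1.11 to 0.47 for Ptpro after LPS+IFNγ, from −0.48 to 0.0033 for Ptprj and −0.044 to 0.23 for Ptpn1 after IL-4, and from −0.75 to 0.057 for Ptpre and −0.28 to 1.31 for Ptpro in LPS+IFNγ against IL-4. KO against WT ran from −0.10 to 0.51 for Ptpre, −0.55 to 0.19 for Ptpro and −0.87 to 0.024 for Ptpn22 in controls, and from −0.19 to 0.029 for Ptpre, −0.66 to 0.22 for Ptpro, −0.28 to 0.058 for Ptprs and −1.81 to 0.058 for Ptpn22 after IL-4. The cause was not tested.

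Over all genes, the IL-4 calls of 1222 in WT and 928 in KO were 1841 and 1640 with DESeq2, 3475 and 8 with only the libraries of the contrast, and 1694 and 1620 without the filter. With 1 library left out they ran from 175 to 281 in WT and from 303 to 1040 in KO, and KO rose to 1816 without the 3 KO libraries numbered 2. The 10, 8 and 9 genes of KO against WT (control, LPS+IFNγ, IL-4) were 66, 35 and 18 with DESeq2, 107, 81 and 33 without the filter, and 8 to 49, 7 to 504 and 8 to 20 with 1 library left out. The interactions' 0 calls were 5 and 4 with DESeq2 and 8 and 23 without the filter, and reached 54 and 26 without the KO libraries numbered 2. Library totals moved the higher share among IL-4 calls in WT from 54.4% to 43.7%.

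The labels do not say that library numbers mark pairs. Deviations of same-numbered libraries nevertheless correlated above 0.1 in 14 of 15 pairs of groups, and all were positive (0.0464 to 0.337). The main model had no term for library number, and the source of these correlations was not tested. A replicate block on library number called 7, 8, 3 and 4 of the 10 genes (LPS+IFNγ in WT and KO, IL-4 in WT and KO). Of all 13525 genes the block called 7626, 7499, 1603 and 1181 in the same order. It brought Ptpre in KO past the threshold after LPS+IFNγ (adjusted p = 0.0476) and IL-4 (0.0383) and Ptpn6 in WT after IL-4 (0.0289). Over all genes the block called 27, 21 and 36 in KO against WT. The smallest count of the 10 genes in any library was 56 (Ptpn22).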
